A study of Rattus norvegicus with 28 samples.

Results

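The digestive enzyme genes of the exocrine pancreas were examined in INS-1, a line derived from a rat insulinoma that releases insulin in culture. The 6 genes were selected by symbol from 17455 rat genes: Ctrb1 (chymotrypsinogen B1), Ctrc (chymotrypsin C), Cpa1 and Cpb1 (carboxypeptidases A1 and B1), Cel (carboxyl ester lipase) and Pnlip (pancreatic lipase). Each symbol had 1 transcript in the expression table, so the rule of taking the transcript with the highest mean over the libraries decided nothing. Ctrb1 was the only member above a mean of 1 TPM (a level corrected for transcript length and scaled to the same total in each library), and it was lower in Med14 S983A than in WT cells in every condition. Cpa1 was close to absent except after 8 h and 16 h of forskolin, Cel and Ctrc gave a few fragments each, and no fragment of Cpb1 or Pnlip was counted in any library.

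The libraries came from WT INS-1 cells and from Med14 S983A cells, in which CRISPR knock-in put an alanine in place of a serine in Med14. Med14 belongs to the Mediator complex, through which transcription factors act on RNA polymerase II. Each genotype was sampled untreated (CON) and after 1 h, 8 h and 16 h of 10 nM exendin-4 (Ex-4), a GLP-1 receptor agonist, or of 10 µM forskolin (FSK), which activates adenylyl cyclase directly, giving 14 groups with 2 replicates each. Cells that went on to treatment were first moved to serum-free medium. The S983A lines were grown from sorted single cells, and the sources used here do not say which replicate came from which line, so the mutation and the history of a clone cannot be told apart. A substitution of 1 amino acid does not show in gene totals, so the table held no check of the genotype labels.

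Depth ran from 42551133 to 57231981 fragments a library, and replicate 2 of S983A 8 h FSK stood above the rest at 92635979. Synthetic ERCC spike-in RNA, added in a fixed amount to the total RNA, took 0.671% to 1.026% of the fragments. The study's methods speak of biological replicates, but the labels do not say whether they were separate cultures, so p-values measure the spread between these samples, which may be technical. In bulk RNA, fewer cells that express a gene and less of its RNA per cell cannot be told apart.

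Acinar cells of the pancreas make these enzymes, mostly as inactive precursors that are packed in granules, secreted into the gut and activated there. Chymotrypsins and carboxypeptidases cut proteins, and Cel and Pnlip cut lipids. In acinar cells the genes are driven by the PTF1 complex, which joins Ptf1a and a class A E protein with Rbpjl and binds an E-box next to a TC-box. Acinar and beta cells descend from the same pancreatic progenitors, and beta cells normally keep this program silent.

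The 250 bases before the transcription start of Ctrb1, Cel and Cpa1 are shown because these 3 members had the most fragments. They come from RefSeq on build GRCr8, not the rn6 build of the expression table, and all 6 members had such a window. Capitals mark an E-box, read as CACCTG on either strand. They also mark a TC-box, which on either strand was read as TTTCCCA and did not overlap the E-box:
Ctrb1, chr19:56566979-56567228, minus strand: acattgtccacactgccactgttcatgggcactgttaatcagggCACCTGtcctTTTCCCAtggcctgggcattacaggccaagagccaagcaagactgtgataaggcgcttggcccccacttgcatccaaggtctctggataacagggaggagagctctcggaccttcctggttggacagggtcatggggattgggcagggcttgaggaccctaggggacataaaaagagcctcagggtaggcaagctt
Cel, chr3:32289020-32289269, minus strand: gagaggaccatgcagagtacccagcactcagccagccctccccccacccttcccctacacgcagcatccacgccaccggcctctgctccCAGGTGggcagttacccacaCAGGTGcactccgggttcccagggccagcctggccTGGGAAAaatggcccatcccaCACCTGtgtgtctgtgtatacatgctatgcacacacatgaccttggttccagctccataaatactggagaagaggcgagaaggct
Cpa1, chr4:60224551-60224800, plus strand: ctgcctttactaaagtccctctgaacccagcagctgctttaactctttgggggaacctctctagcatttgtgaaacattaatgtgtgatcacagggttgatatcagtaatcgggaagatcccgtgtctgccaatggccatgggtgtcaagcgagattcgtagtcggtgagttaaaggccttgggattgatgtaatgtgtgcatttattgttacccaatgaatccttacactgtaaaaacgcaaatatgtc

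In Ctrb1 the E-box began at base -206 and the TC-box at base -196, counted back from the start site, 10 bases apart on the strand of the gene. Cel held 3 matches to the E-box and 1 to the TC-box, and the Cpa1 window held neither. Of 33469 windows of this length, 15.9% held CACCTG, 7.1% held TTTCCCA and 1.05% held both, on either strand. The cAMP response element TGACGTCA stood in 1.59% of windows and its shorter form TGACG, which lies inside it, in 18.2%, and neither was found in the windows of the 6 members. These are matches of letters in a short window and say nothing of binding. Sequence farther from the start sites was not searched. For INS-1 the study reports an inducible enhancer bound by the cAMP-responsive factor CREB in the locus of Bcar1 and Ctrb1, inhibited in S983A cells.

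Ctrb1 encodes chymotrypsinogen B1, the precursor of a digestive serine protease, and was detected in all 28 libraries. The deposited table places its transcript of 779 bases on rn6 at chr19:43906344-43911020, minus strand. Untreated WT cells had 5.53 and 4.93 TPM, from 102 and 111 fragments, and untreated S983A cells had 0.487 and 0.857 TPM, from 10.5 and 18.5 fragments. Both WT values lay above both S983A values. A count of 0.5 arises because the table counts the reads of a pair and a fragment has 2.

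In WT cells the level was 7.09 and 4.59 TPM after 1 h of Ex-4, 4.60 and 5.18 after 8 h, and 8.97 and 8.21 after 16 h. With FSK it was 6.59 and 6.0 TPM after 1 h, 5.75 and 6.62 after 8 h, and 14.1 and 12.2 after 16 h. Both 16 h groups lay wholly above WT CON, and the 1 h Ex-4 replicates spread to both sides of it.

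In S983A cells the level was 0.706 and 0.719 TPM after 1 h of Ex-4, 1.11 and 0.735 after 8 h, and 1.53 and 1.76 after 16 h. With FSK it was 1.09 and 0.780 TPM after 1 h, 0.419 and 0.540 after 8 h, and 0.935 and 1.63 after 16 h. The 16 h groups again lay above CON, and 8 h FSK was the lowest group of the study.

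Over the 14 WT libraries Ctrb1 ran from 4.59 to 14.1 TPM and over the 14 S983A libraries from 0.419 to 1.76 TPM, so the genotypes did not overlap in any condition. The ratio of the mean levels, WT to S983A, was 7.78 in CON, 8.20, 5.31 and 5.22 after 1 h, 8 h and 16 h of Ex-4, and 6.73, 12.9 and 10.2 after 1 h, 8 h and 16 h of FSK. Ranked by mean level, WT 16 h FSK stood first at 13.1 ± 1.33 TPM (SD, n = 2) and WT 16 h Ex-4 second at 8.59 ± 0.54 TPM, with no overlap between them. WT 1 h FSK followed at 6.30 ± 0.414 TPM without overlap, then WT 8 h FSK, 1 h Ex-4, CON and 8 h Ex-4 down to 4.89 ± 0.409 TPM, each overlapping the next. Among S983A groups the order ran from 16 h Ex-4 at 1.65 ± 0.165 TPM through 16 h FSK, 1 h FSK, 8 h Ex-4, 1 h Ex-4 and CON to 8 h FSK at 0.48 ± 0.0856 TPM. Neighbours in that S983A order overlapped, except 8 h Ex-4 and 1 h Ex-4.

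**Figure D1:**
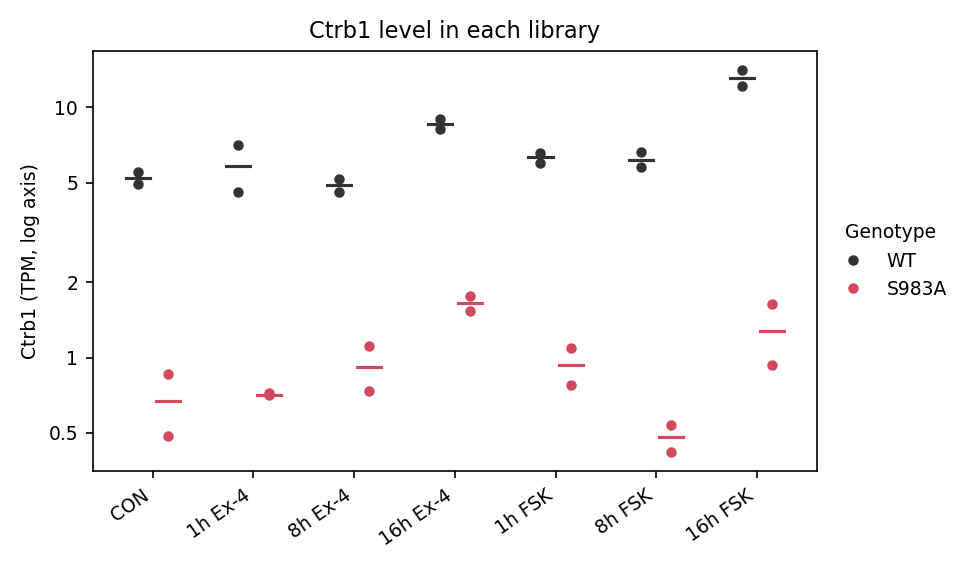
Ctrb1 in TPM on a log axis in the 7 conditions, WT in dark grey and S983A in red; each point is 1 library and each bar the mean of 2. WT libraries sit between 4.59 and 14.1 TPM and S983A libraries between 0.419 and 1.76 TPM, with the highest WT level after 16 h of FSK.

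Differences were tested with limma on log2(TPM + 1) across the 10275 genes that averaged 1 TPM or more, and a gene was called at a Benjamini-Hochberg adjusted p under 0.05 and a fold over 1.5. Ctrb1 was the 1 member of 6 that passed the filter on low values. Its mean over all libraries, 4.06 TPM, was raised by the WT libraries, while untreated S983A cells averaged 0.672 TPM. On this scale the pseudocount shrinks differences between low values, so edgeR on the recovered fragments is given beside limma where the size matters.

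Between the untreated genotypes Ctrb1 was lower in S983A by a log2 difference of -1.90 ± 0.15 (SE, adjusted p = 2.67e-11, limma), among 19.4% of all genes tested that were called there. On recovered fragments the difference was -2.85 (adjusted p = 2.96e-10, edgeR). With no filter on low values it was -1.90 (adjusted p = 3.4e-08, limma). The 50 tested genes nearest to Ctrb1, 25 on each side, had a median difference of -0.05, with 31 of them below 0.

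Ctrb1 rose in 3 of the 12 comparisons of a treatment with CON, all at 16 h. In WT cells it rose with FSK by 1.18 ± 0.15 (SE, adjusted p = 8.99e-08, limma, 34.5% of genes called) and with Ex-4 by 0.62 ± 0.15 (adjusted p = 0.00073, 11.8% called). In S983A cells it rose with Ex-4 by 0.67 ± 0.15 (adjusted p = 0.000405, 11.9% called). As ratios of mean TPM to CON these were 2.51, 1.64 and 2.45. In S983A 16 h FSK, where 33.3% of genes were called, the ratio was 1.91. The log2 difference there was 0.44 (95% interval 0.13 to 0.75, adjusted p = 0.0094, limma), short of the fold required. It was called in 8 of 11 alternatives with all libraries, among them edgeR at 1.02 (adjusted p = 0.0134).

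The call in S983A 16 h Ex-4 was lost without replicate 1 of S983A CON (0.51). The WT 16 h Ex-4 call was also lost without replicate 2 of WT CON (0.55) or replicate 1 of WT 16 h Ex-4 (0.57). All comparisons of a genotype share the 2 CON libraries.

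At 1 h and 8 h limma did not call Ctrb1 in either genotype, but in WT 8 h FSK it was called with median-centring (0.59, adjusted p = 0.00136) and in DESeq2 (0.60, adjusted p = 0.0103). The WT differences were 0.11 and -0.08 with Ex-4 at 1 h and 8 h, and 0.23 and 0.20 with FSK, where 2.87%, 9.6%, 7.47% and 43.6% of genes were called. The S983A differences were 0.04 and 0.20 with Ex-4, and 0.22 and -0.17 with FSK, where 3.04%, 6.3%, 10.4% and 46.1% were called. The 95% intervals of these 8 differences reached from -0.48 to 0.54. The median of all genes tested was itself shifted, from -0.34 in WT 8 h FSK to -0.03 in S983A 8 h Ex-4, and ERCC scaling moved that median at WT 16 h FSK from -0.20 to 0.14 and at WT 16 h Ex-4 from -0.16 to 0.14. Under ERCC scaling Ctrb1 still rose at 16 h in WT, by 1.51 with FSK and 0.90 with Ex-4.

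The response differed between genotypes in 1 of 6 comparisons on this scale. At 16 h FSK the S983A response was smaller than the WT response by a log2 difference of -0.74 ± 0.21 (SE, adjusted p = 0.00426, limma), where 17% of genes were called. That call depended on the scale: with a pseudocount of 0.1 TPM it was -0.47 (adjusted p = 0.23) and on recovered fragments -0.49 (adjusted p = 0.338, edgeR), neither called. It was also lost without replicate 2 of S983A CON (-0.58) or replicate 1 of S983A 16 h FSK (-0.52). At 16 h Ex-4 the difference of responses was 0.05 (95% interval -0.39 to 0.48), where 7.24% of genes were called. In the other 4 comparisons, at 1 h and 8 h of Ex-4 and of FSK, no difference was called for Ctrb1, and 0.672%, 2.77%, 1.64% and 13.9% of genes were.

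Ex-4 and FSK did not differ for Ctrb1 by the full criterion in any of 6 comparisons at matched time and genotype; at an unadjusted p under 0.05 limma gave 2, and the full criterion gave 1 in edgeR and 2 in DESeq2. Ex-4 was lower than FSK in WT at 16 h by -0.56 ± 0.15 (SE, adjusted p = 0.00198, limma), just under the required fold, and edgeR called it at -0.65 (adjusted p = 0.000175). In S983A at 8 h Ex-4 was higher by 0.37 (adjusted p = 0.0255), under the required fold. The share of all genes called was 1.79%, 28.1% and 18.7% in WT at 1 h, 8 h and 16 h, and 3.03%, 36.5% and 16.3% in S983A.

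**Figure D2:**
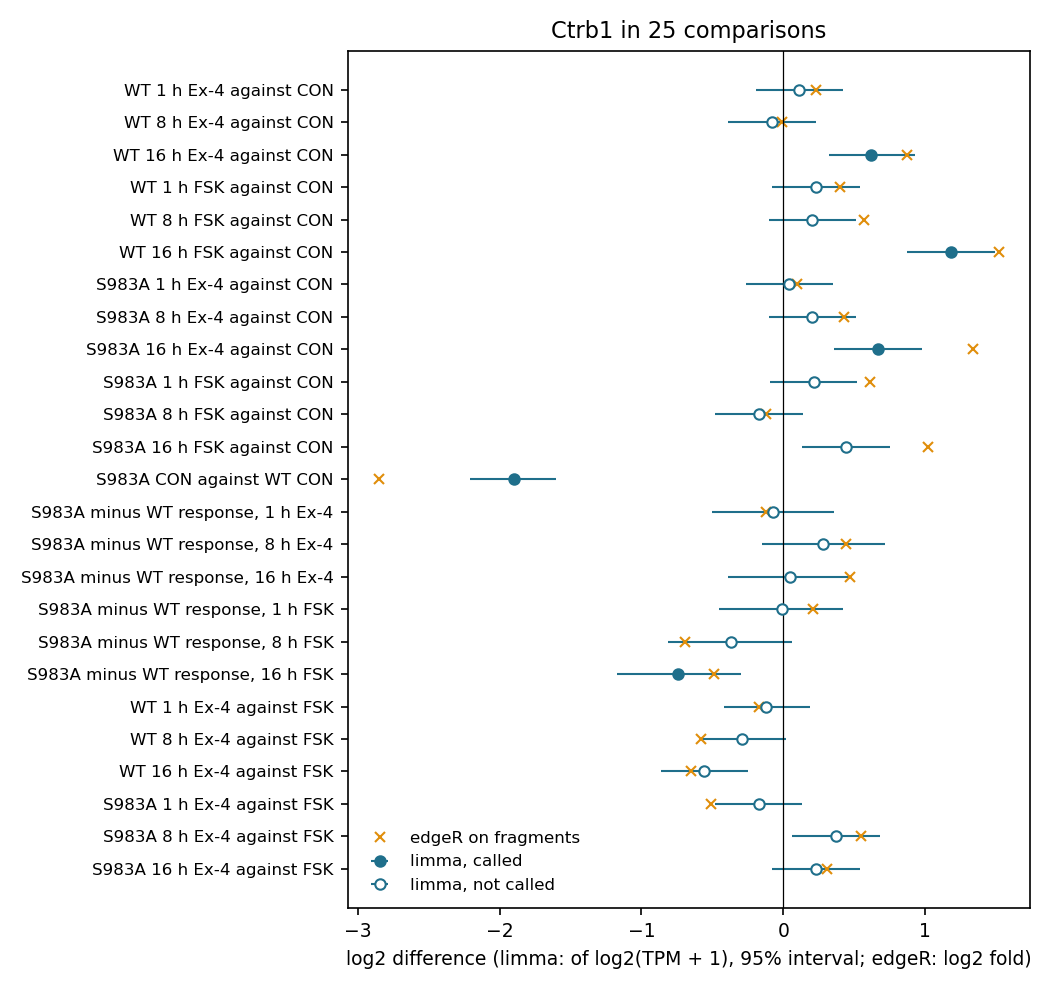
Log2 differences of Ctrb1 in 25 comparisons: circles are limma estimates on log2(TPM + 1) with 95% intervals, filled where called, and crosses are edgeR log2 folds on recovered fragments. The 5 filled circles are the 3 rises at 16 h, the genotype difference of -1.90 and the difference of 16 h FSK responses of -0.74, for which the edgeR value was -0.49.

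Cpa1 encodes the precursor of carboxypeptidase A1, which removes residues from the C-terminal end of food proteins, and lies on rn6 at chr4:57952982-57959109, plus strand. Its mean level was 0.0912 TPM, below the filter, so it entered no limma test and its values rest on few fragments. WT CON gave 0 and 2 fragments, WT 8 h FSK 15.5 and 7.5, and WT 16 h FSK 32.5 and 29.5, the last at 0.699 and 0.603 TPM. S983A CON gave 0 and 0 fragments, S983A 8 h FSK 3 and 7.5, and S983A 16 h FSK 9 and 2.5. The other 16 libraries gave 0 to 4 fragments. All 8 libraries of 8 h and 16 h FSK held at least 2.5 fragments, and the other 20, CON included, held 0 in 9 libraries and at most 4.

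Per fragment sequenced, Cpa1 was 28.6 times higher in WT 16 h FSK than in WT CON, with an exact binomial 95% interval of 7.58 to 241, and 10.9 times higher in WT 8 h FSK, with an interval of 2.69 to 95.4. Against S983A CON at 0, taken as 3 fragments over the group, S983A 16 h FSK was at least 3.37-fold higher and S983A 8 h FSK at least 2.28-fold higher. These intervals and bounds cover counting error only. With no filter on low values, limma called Cpa1 in WT 16 h FSK against CON (0.69, adjusted p = 3.52e-09, 25.2% of genes called). In the same limma fit the differences were 0.29 in WT 8 h FSK (adjusted p = 0.000133), 0.10 in S983A 8 h FSK (adjusted p = 0.101) and 0.15 in S983A 16 h FSK (adjusted p = 0.0191). A call was not possible in these groups: with 1 TPM added, levels this low cannot reach the required fold. The expression filter of edgeR admitted Cpa1 only through the groups where it was high, so no test from that fit is given for it.

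WT 16 h Ex-4 held 0.5 and 1 fragments of Cpa1 and S983A 16 h Ex-4 held 0 and 0. With no filter on low values, limma could not call Cpa1 with Ex-4 against CON, because its levels there were too low for the required fold. In the same fit Ex-4 was lower than FSK in WT at 16 h (-0.70, adjusted p = 5.95e-09, 13.9% of genes called). WT 16 h FSK held 5.64 times as much Cpa1 as S983A 16 h FSK (interval 2.89 to 11), but the difference of the responses was not called by limma without the filter (-0.54, adjusted p = 1.91e-05, under the required fold).

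Cpa4 and Cpa5, also of the carboxypeptidase A family, lie before Cpa1 on the plus strand of chr4, and Cep41 and Mest lie beyond it; these 4 genes were chosen after their values were seen. The gap between Cpa5 and Cpa1 is 7920 bases. Cpa4 had 0.313 and 0.363 TPM in WT CON, 3.51 and 3.24 TPM in WT 8 h FSK and 1.6 and 1.63 TPM in WT 16 h FSK. In S983A it had 0.445 and 0.432 TPM in CON, 4.51 and 4.15 TPM in 8 h FSK and 3.4 and 3.08 TPM in 16 h FSK.

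Cpa4 was thus higher at 8 h than at 16 h of FSK in both genotypes, while in WT Cpa1 was higher at 16 h. With Ex-4, Cpa4 had 1.66 and 2.23 TPM at 8 h in WT and 1.8 and 1.94 TPM in S983A, above CON in both genotypes. It passed the filter on low values only through treated groups where it was higher, so no test is given for it. In these 8 h Ex-4 groups Cpa1 held 1.5 to 4 fragments a library. Cpa5 ran from 0.009 TPM to 1.28 TPM and was highest in both genotypes at 8 h and 16 h of FSK. Mest, at a mean of 642 TPM, rose in all 12 comparisons with CON, and Cep41 at 19.2 TPM in none. The share of all genes called in those comparisons ran from 2.87% to 46.1%. Carboxypeptidase genes resemble each other in sequence, and the part of reads shared among them was not tested.

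**Figure D3:**
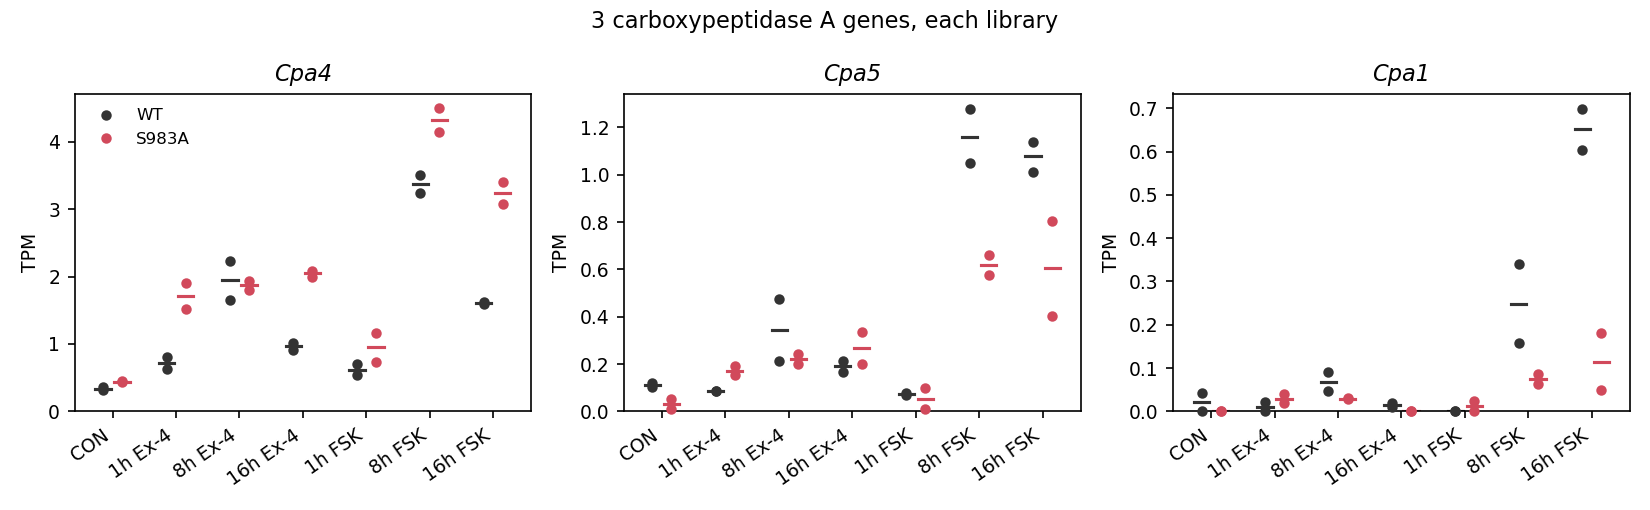
TPM of Cpa4, Cpa5 and Cpa1 in the 7 conditions, WT in dark grey and S983A in red; points are libraries and bars the mean of 2. Cpa1 reaches 0.699 TPM in WT 16 h FSK and is at 0 in both S983A CON libraries, while Cpa4 reaches 4.51 TPM in S983A 8 h FSK.

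Cel encodes carboxyl ester lipase, the bile salt-dependent lipase of pancreatic juice, and lies on rn6 at chr3:7134021-7141522, minus strand. It ran from 0 to 0.204 TPM and 112 fragments were counted over all libraries, 77.5 in WT and 34.5 in S983A. WT CON gave 8.5 and 5 fragments and S983A CON 2 and 0.5. In those groups the WT level was 5.4 times the S983A level, with an exact binomial interval of 1.3 to 25.3. With no filter on low values, the log2 difference was -0.14 (adjusted p = 0.0407, limma). With 1 TPM added, a gene at or below 0.204 TPM cannot reach the required fold, so limma could not call Cel. The expression filter of edgeR admitted Cel only through WT libraries, where it was higher, so no test from that fit is given for it. WT libraries gave 1.5 to 11.5 fragments and S983A libraries 0 to 7, so the genotypes overlapped. At these levels limma without the filter could not call Cel with FSK against CON either.

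Ctrc encodes chymotrypsin C, which regulates the activation of other digestive zymogens, and lies on rn6 at chr5:160394677-160403373, minus strand. It gave 12 fragments in all, at most 2.5 in a library, and 18 of 28 libraries had none. No order of the groups can be read at that depth. The genes around Ctrc were shifted between the untreated genotypes, with a median log2 difference of 0.73 over the 50 nearest genes tested, against -0.06 and -0.04 around Cpa1 and Cel.

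Cpb1, carboxypeptidase B1, lies on rn6 at chr2:105059295-105089682 and Pnlip, the main pancreatic lipase, at chr1:279798187-279811372. Both were at 0 in all 28 libraries. A count of 0 allows up to 3 fragments in a library, which corresponds to 0.0406 to 0.0917 TPM for Cpb1 and 0.0386 to 0.0872 TPM for Pnlip. No level above that was detected in any library, treated or not.

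**Figure D4:**
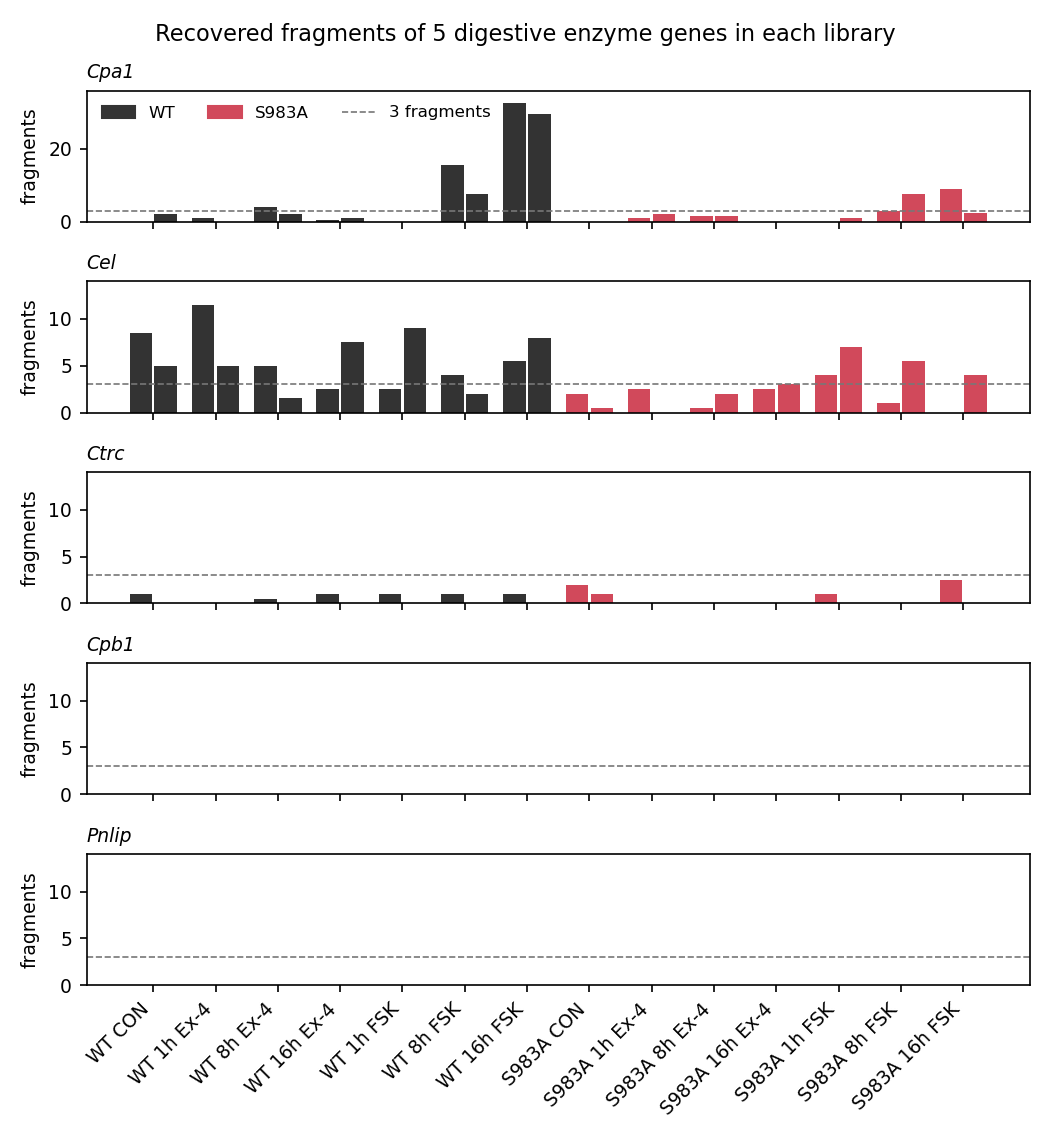
Recovered fragments of Cpa1, Cel, Ctrc, Cpb1 and Pnlip in each library, the 2 replicates of a group side by side, WT in dark grey and S983A in red, with a dashed line at 3 fragments. Cpa1 reaches 32.5 fragments in WT 16 h FSK, Cel at most 11.5, Ctrc at most 2.5, and Cpb1 and Pnlip none.

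Most genes of the wider exocrine program were near absent in the same libraries. Of 35 other digestive enzymes and secretory proteins listed, 33 were in the table, 8 of them at 0 in every library, among them Prss1, Rnase1 and Amy2a3, and 22 never exceeded 3 fragments. The PTF1 subunit Ptf1a was also at 0 in every library, but the PTF1 subunit Rbpjl passed the filter on low values. Of the 33, those that passed the filter included the cholecystokinin receptor Cckar at a mean of 32.1 TPM and the secreted phospholipase Pla2g1b at 14 TPM. The chymotrypsin-like protease Ctrl at 4.83 TPM and Cpa4 at 1.72 TPM also passed.

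Of these 4 genes, Ctrl rose in 16 h FSK in both genotypes, where 34.5% of all genes were called in WT and 33.3% in S983A. Cckar fell in S983A at 16 h of FSK and of Ex-4, where 33.3% and 11.9% of all genes were called. Cpa4 was higher in 16 h FSK than in CON in both genotypes, but no test is given for it. Ctrl, the member of the list closest in function to Ctrb1, had a log2 difference of 0.93 ± 0.10 (SE, adjusted p = 1.28e-08, limma) in WT 16 h FSK and 1.72 ± 0.10 (adjusted p = 9.21e-14) in S983A 16 h FSK. Between untreated genotypes Ctrl differed by -0.16 (adjusted p = 0.191), beside -1.90 for Ctrb1.

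Cckar and Pla2g1b were lower in untreated S983A cells, as Ctrb1 was, with log2 differences of -1.04 ± 0.06 (adjusted p = 8.26e-14, limma) and -1.13 ± 0.13 (adjusted p = 2.93e-08). Of all genes tested, 19.4% were called there. Cpa4 averaged 0.338 TPM in WT CON and 0.439 TPM in S983A CON. The summed level of the 6 members ran from 0.5 to 14.9 TPM.

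Of 13 transcription factors listed as active in acinar cells, 11 were tested. The most abundant were Xbp1 at 287 TPM, Foxa2 at 118 TPM, the E protein Tcf3 at 54.1 TPM and Bhlha15 at 46.5 TPM; islet cells also express Xbp1, Foxa2 and Tcf3. In WT 16 h FSK, where 34.5% of all genes were called, 2 rose and 4 fell: the secretory factors Bhlha15 by 1.42 ± 0.07 (SE, adjusted p = 6.53e-16, limma) and Xbp1 by 1.11 ± 0.04 (adjusted p = 1.95e-18) rose, while Tcf3 had -0.82 ± 0.06 (adjusted p = 8.81e-13). Between untreated genotypes, where 19.4% of all genes were called, 3 factors were higher in S983A and 2 were lower, while Ctrb1 was lower. The 3 were the PTF1 subunit Rbpjl, Xbp1 and Bhlha15, the last by 1.54 ± 0.07 (adjusted p = 2.45e-16, limma).

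Markers of the other pancreatic cell types described the line itself. The beta cell list was led by Ins1 at a mean of 46600 TPM, Ins2 at 13500 TPM, Iapp at 6400 TPM and Chga at 4920 TPM, and its summed level ran from 52400 to 91000 TPM. The duct list was led by the keratins Krt8 at 1610 TPM and Krt18 at 241 TPM with Car2 at 27.8 TPM and Slc4a4 at 5.19 TPM. Its sum ran from 823 to 3420 TPM, but only 5 of its 10 genes in the table passed the filter. Of the rest, Spp1 was at 0 in every library and 4 averaged at most 0.151 TPM. Of the genes of other islet cells, Gcg averaged 337 TPM, Pyy 0.121 TPM and Hhex 0.0615 TPM.

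Members of these lists were also called between genotypes and treatments. Between untreated genotypes, against 19.4% of all genes called, 2 of 14 beta genes were higher in S983A and 2 lower, 3 of 5 duct genes were lower, and Gcg was lower with a log2 difference of -4.52. In WT 16 h FSK, against 34.5% of all genes, 3 of 14 beta genes rose and 9 fell, 3 of 5 duct genes fell and Gcg rose. The part of these differences in the values of Ctrb1 and Cpa1 was not tested.

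The 3 tested genes whose 14 group means of log2(TPM + 1) were most like those of Ctrb1 were Emc10 (Pearson r = 0.988), Lamb3 (r = 0.984) and Iapp (r = 0.982). The points share libraries and the split between genotypes, so these values describe likeness alone. Lamb3, a laminin subunit, was lower in untreated S983A by -1.48 ± 0.05 (SE, adjusted p = 4.78e-19, limma) and rose at 16 h FSK in WT by 0.99 ± 0.05 (adjusted p = 8.81e-16). Iapp, the beta cell peptide amylin, was lower by -1.10 ± 0.04 (adjusted p = 6.41e-17) and rose by 1.08 ± 0.04 (adjusted p = 4.18e-17). Emc10, a subunit of an insertase of the endoplasmic reticulum, had the same signs at -0.34 and 0.32, below the required fold.

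Bcar1 and Ldhd were the nearest tested genes on either side of Ctrb1. Bcar1, an adaptor of integrin signalling on the same strand, lies 21534 bases from Ctrb1 and averaged 32.7 TPM. It fell in WT 16 h FSK by -1.04 ± 0.06 (SE, adjusted p = 2.56e-14, limma), where Ctrb1 rose, and between untreated genotypes it differed by -0.43 ± 0.06 (adjusted p = 5.77e-07), under the required fold. Ldhd, 57407 bases away on the other side and at 3.92 TPM, differed by 0.43 in WT 16 h FSK and by 0.29 between untreated genotypes, neither called.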

How the data were processed

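RNA-seq was read from the deposited tables of 28 libraries. The authors aligned reads to rn6 with STAR 2.5.3a and counted RefSeq exons with HOMER 4.11.1, giving TPM per transcript, 19223 lines with 92 ERCC sequences. They also deposited raw ERCC counts made with QoRTs. The columns of libraries not used here numbered 0. The members and lists were chosen with earlier results of these data known. The transcript with the highest mean TPM stood for each of 17455 symbols.

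Main tests used limma 3.58.1 in R 4.3.3 on log2(TPM + 1), with a mean for each of 14 groups over all libraries, genes averaging 1 TPM or more, 25 contrasts, two-sided, Benjamini-Hochberg within a contrast, and calls required an adjusted p below 0.05 with a fold over 1.5. Dividing ERCC counts by TPM times length gave a scale for each library that turned TPM into fragments: of 137335 values checked, 100% were whole within 0.05 reads beyond the rounding of the table, at 2 reads a fragment. These fragments, rounded, entered edgeR 4.0.16 and DESeq2 1.42.0 as alternatives, since the authors' DESeq2 1.24.0 with ERCC size factors needs counts. edgeR on 11818 genes kept by its expression filter was added after seeing the data. The alternatives were a pseudocount of 0.1 TPM, no filter or a mean of 5 TPM, median-centring, ERCC scaling, only the libraries of a contrast, a replicate block, each library left out, no fold minimum and the count tools. Scripts were tested on simulated data.

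Named genes were the 6 members, the 4 most abundant genes of each list, the 3 genes most like Ctrb1 by Pearson r over group means, and its nearest tested genes. Some genes of the lists are not reported here. Intervals are exact binomial at 95% and cover counting error only. Promoter windows are from RefSeq on GRCr8 and no protein sequences were used here.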

Additional observations from a re-analysis of the deposited data

Results flagged for a closer look

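The difference between genotypes in the response of Ctrb1 to 16 h FSK passed the interaction test on log2(TPM + 1), at -0.74 (adjusted p = 0.00426, limma). On the scale of ratios the WT level rose 2.51 times and the S983A level 1.91 times, and edgeR gave -0.49 (adjusted p = 0.338) for the same difference.

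Cpa1, which lay below the filter of the main test, gave 62 fragments over the 2 libraries of WT 16 h FSK, against 2 over those of WT CON. WT 16 h Ex-4 gave 1.5 and S983A 16 h FSK gave 11.5.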

How the results depend on the processing

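Calls of members numbered 3 in treatments against CON, 1 between untreated genotypes, 1 in interactions and 0 in Ex-4 against FSK. Treatment calls became 5 with median-centring or DESeq2 and 8 in the added edgeR fit, which admitted Cpa1 only through groups where it was high. Other settings also gave more than 3, since Ctrb1 in S983A 16 h FSK was called in 8 of 11 alternatives with all libraries. Interaction calls became 0 with a pseudocount of 0.1 TPM, edgeR, the added edgeR fit, DESeq2 and DESeq2 with ERCC size factors, and ran from 0 to 1 with a library left out. Ex-4 against FSK calls became 1 with no filter, median-centring, ERCC scaling or edgeR, 2 with a pseudocount of 0.1 TPM, no fold minimum, DESeq2 or DESeq2 with ERCC size factors, and 5 in the added edgeR fit; they ran from 0 to 1 with a library left out. The genotype call held in every alternative that tested Ctrb1, at -2.88 to -1.76 with all libraries and -2.06 to -1.74 with a library left out. With a minimum of 5 TPM no member was tested.

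Of 975 alternative values of Ctrb1, 913 kept direction and call, 10 lost a call, 27 gained one and 25 changed sign, none of these called. The sign changes without left-out libraries were WT 8 h Ex-4 (0.04 median-centring, 0.06 ERCC scaling, 0.01 DESeq2, 0.07 DESeq2 with ERCC size factors), S983A 8 h FSK (0.17 median-centring), and the response differences at 16 h Ex-4 (-0.08 median-centring, -0.29 ERCC scaling) and 1 h FSK (0.19 pseudocount, 0.00 median-centring, 0.21 both edgeR fits, 0.24 DESeq2). With a library left out, sign changed in these values, given with their full range: WT 1 h Ex-4 (-0.15 to 0.38), S983A 1 h Ex-4 (-0.12 to 0.20), the response differences at 1 h Ex-4 (-0.34 to 0.20), 16 h Ex-4 (-0.11 to 0.21) and 1 h FSK (-0.17 to 0.15), and WT 1 h Ex-4 against FSK (-0.38 to 0.15). The cause was not tested.

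Replicates of different groups shared only a number: over 91 pairs of groups the correlation of deviations ran from -0.28 to 0.283 with a median of 0.00346. With the replicate number as a block the calls were 3, 1, 1 and 0, as without it. With 2 libraries a group, and 9.5 to 41 fragments of Ctrb1 in S983A, small differences were not detectable, and values of the near-absent members show presence in a few fragments only.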

Other observations

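Pnliprp2, of the pancreatic lipase family, was chosen after its values were seen. Its mean of 0.97 TPM lay just below the filter, beside 0 for Pnlip. It had 1.06 and 1.21 TPM in WT CON and 0.374 and 0.446 TPM in S983A CON. At 16 h FSK it had 0.371 and 0.650 TPM in WT and 2.42 and 2.09 TPM in S983A, so the genotypes stood in the opposite order. In the edgeR fit added after seeing the data, the log2 difference from CON at 16 h FSK was -0.95 in WT and 2.48 in S983A. The difference of these responses was 3.43. No p-value is given for them, because the gene was chosen with these values known. At 8 h FSK it was lowest in both genotypes, at 0.130 and 0.261 TPM in WT and 0.229 and 0.324 TPM in S983A.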
